A study of Mus musculus with 21 samples.

Results

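The oxidative phosphorylation genes were taken as every gene of the bulk RNA table whose symbol begins with Nduf followed by a, b, c, s or v, with Sdha to Sdhd, with Uqcr, with Cox4 to Cox8, or with Atp5. The rule used gene names alone and found 94 genes of 24176 in the bulk table and 98 of 32285 in the single-cell table, with 92 in both. By known role, 36 of the 94 were read as complex I, 4 as complex II, 8 as complex III, 20 as complex IV and 15 as complex V. The other 11, such as Ndufaf4, Sdhaf1 and Atp5s, are assembly factors or other proteins that share a name stem and are not subunits. Cox7a2l was counted to complex IV, though it was read as a supercomplex factor and not as a subunit.

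The cells were endothelial cells of C57BL/6J mice aged 2 to 4 months, measured as 3 brain, 3 lung and 3 liver bulk RNA libraries and as 1 single-cell library of brain. Every group came from perfused mice whose organs were taken apart with collagenase, dispase and DNase, and living CD31+ PDGFRβ- CD45- cells were sorted; a myelin removal step was used for brain alone. The labels call the bulk libraries biological replicates without naming the animals, so each p-value speaks of the spread from library to library. The labels give no difference in genotype or treatment between the groups.

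Oxidative phosphorylation takes place in the inner mitochondrial membrane. Complexes I and II feed electrons from NADH and succinate to ubiquinone, complex III passes them to cytochrome c, complex IV passes them to oxygen, and complex V (ATP synthase) makes ATP from the proton gradient that complexes I, III and IV build. Most subunits are encoded in the nucleus and a few core ones in mitochondrial DNA, and several complex IV subunits exist as isoforms found mainly in heart and skeletal muscle, lung or testis. Endothelial cells are known to draw much of their ATP from glycolysis, and brain endothelium has been described as rich in mitochondria.

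Pecam1 and Cdh5, which encode CD31 and VE-cadherin, were at 605 to 1783 and at 1025 to 7210 counts per 1000000 counts of the library (CPM) over the 9 bulk libraries. Total counts were 15907235 to 21792786 in brain, 2992101 to 11308897 in lung and 18485600 to 25690571 in liver, and lung library 2 was the shallowest. The ribosomal RNA gene Rn45s took 12.2% to 28.8% of the counts. The 12 hepatocyte markers summed to 390 to 918 CPM in liver, 51.3 to 968 in brain and 9.28 to 17.0 in lung. Most of the brain sum was Ttr, also a choroid plexus gene, at 46.1, 961 and 325 CPM in brain libraries 1 to 3. The other 11 summed to 358 to 863 CPM in liver and 0.780 to 6.58 in brain, with Alb at 0 in brain and lung. The erythroid list summed to 48.0 to 325 CPM in brain, 16.7 to 91.6 in lung and 2.26 to 29.6 in liver. Of 12 cardiac muscle markers, which summed to 144 to 304 CPM in brain, 485 to 2558 in lung and 295 to 403 in liver, Myl7 was at 0 throughout. The mural cell list of 9 genes summed to 32.9 to 156 CPM in brain, 22.1 to 31.8 in lung and 26.3 to 124 in liver, with Pdgfrb at 0 in liver. Most of the liver sum was Abcc9, at 100, 14.8 and 28.8 CPM in liver libraries 1 to 3, and Vtn, at 13.7, 4.67 and 17.1. Rgs5 was at 5.66, 17.1 and 85.1 CPM in brain and at 0.433, 1.48 and 0.471 in liver. The 9 lung epithelium markers summed to 310, 1799 and 623 CPM in lung libraries 1 to 3, of which Scgb1a1, a club cell gene, made up 286, 1772 and 590. The other 8 summed to 23.6, 27.1 and 33.5 CPM. The 9 leukocyte markers summed to 110 to 174 CPM in lung, 0.279 to 7.86 in brain and 5.90 to 19.0 in liver. The 10 smooth and skeletal muscle markers summed to 188 to 1045 CPM in lung, 80.9 to 139 in brain and 109 to 147 in liver. The part of other cells in the results below was not tested.

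Seen as a sum over all 94 genes, the liver libraries held the most. The sum was 1441, 1633 and 1679 CPM in brain libraries 1 to 3, 1519, 1881 and 1609 in lung and 2022, 2267 and 2218 in liver. All liver libraries lay above all brain and lung libraries, while brain and lung overlapped. In bulk RNA of sorted cells, fewer cells of a type and less RNA per cell cannot be told apart. Without Atp5b and Sdha, 2 of the genes with the most counts, the sums were 1111 to 1217 CPM in brain, 1132 to 1470 in lung and 1605 to 1695 in liver, again with liver apart. As a yardstick, 84 cytosolic ribosomal protein genes summed to 1558 to 1682 CPM in brain, 2202 to 3330 in lung and 2690 to 3521 in liver, with all brain libraries below all others.

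**Figure D1:**
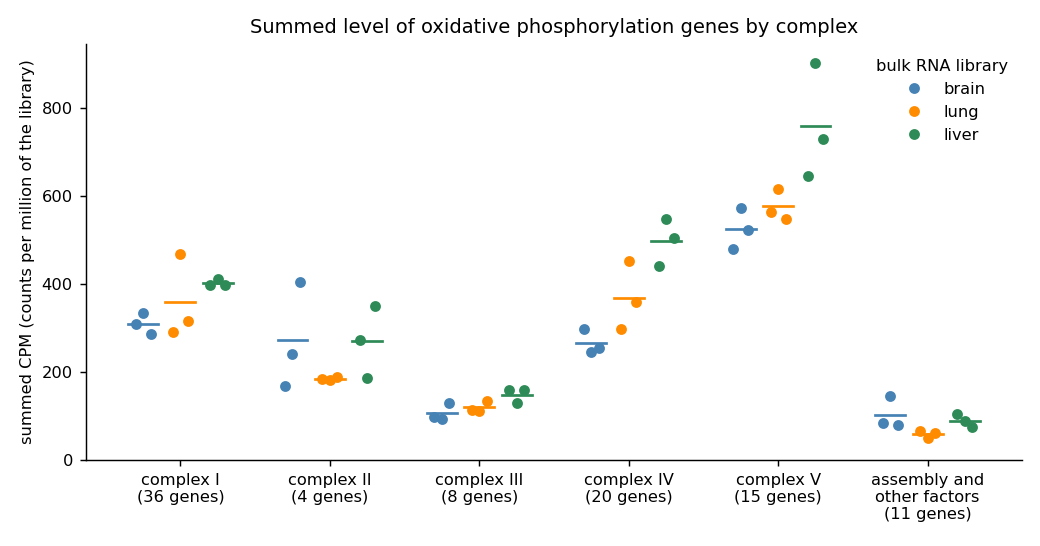
Summed CPM per bulk RNA library (points) and its mean over 3 libraries (bars) for each complex, by tissue. Liver libraries lie above brain libraries for complexes I, IV and V, and above lung libraries for complex V; the 3 tissues overlap for complex II.

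The order of the tissues was not the same for every complex. Complex IV, which summed to 298, 247 and 255 CPM in brain libraries 1 to 3, reached 298, 452 and 359 in lung and 442, 548 and 505 in liver, so that brain and liver were apart and lung overlapped liver. Cox7a2l, the supercomplex factor counted to complex IV, had a mean of 55.9 CPM in brain. Complex V summed to 481, 573 and 523 CPM in brain, 565, 617 and 549 in lung, with 646, 904 and 729 in liver. Here liver lay above both other tissues. Complex I summed to 286 to 333 CPM in brain and 399 to 412 in liver with no overlap, and to 291 to 469 in lung, which spanned both. Complex III (92.1 to 129 CPM in brain, 111 to 134 in lung, 128 to 159 in liver) and complex II (169 to 405, 182 to 188 and 188 to 351 in the same order) overlapped between brain and liver. The 7 core subunits of complex I that carry its iron-sulfur clusters and flavin or lie beside them overlapped across tissues, at 76.9 to 89.1 CPM in brain, 73.5 to 118 in lung and 73.8 to 92.2 in liver. The plot of summed levels by complex shows these values for each library. The 11 assembly and other factors went another way, at 79.5 to 145 CPM in brain, 49.1 to 65.2 in lung and 74.8 to 103 in liver, with all lung libraries below all others.

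Single genes were tested with edgeR's quasi-likelihood test over all 13216 genes that passed a filter on low counts, 84 of the 94 among them. A call needed a log2 fold change of 1 or more in either direction together with an adjusted p (Benjamini-Hochberg) under 0.05. The 10 genes that did not pass the filter were Atp5g2, Atp5k, Cox6a2, Cox6b2, Cox7a1, Cox7b2, Cox8b, Cox8c, Ndufa4l2 and Ndufs5. Each of the 3 comparisons shares its libraries with the others, so their values are given side by side and not as separate evidence.

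Between brain and lung, no oxidative phosphorylation gene was called in either direction. Over all genes tested, 5.05% were called higher and 7.25% lower in brain. At an unadjusted p under 0.05, 2 of the oxidative phosphorylation genes lay each way, or 2.38% of the 84. Over all genes, 11.5% were higher and 14.6% lower in brain at that p. DESeq2 called 2, both lower in brain, and 2392 over all genes. The median log2 fold change of the 84 genes was -0.09, against 0.00 for all genes, with 39 positive and 45 negative, and it was 0.048 without lung 2. By CPM, 8 genes were higher and 11 lower in every brain library than in any lung library, which is 9.52% and 13.1% of the 84, against 15.0% and 18.9% of all genes. With CPM over the TMM-scaled library size, an alternative chosen after seeing the data, 9 were higher and 6 lower (10.7% and 7.14%), against 16.1% and 18.1% of all genes.

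Between brain and liver, 4 genes were called lower in brain and 0 higher, against 8.72% and 7.45% of all genes tested. These 4 make up 4.76% of the 84, a share under the background. At an unadjusted p under 0.05, 12 genes were lower in brain and 0 higher. The 12 are 14.3% of the 84, near the 14.9% of all genes that were lower, while 13.7% of all genes were higher. DESeq2 called 7, and 2837 over all genes. With 1 library left out the count was 4 without lung 2, 0 without brain 2, brain 3 or liver 2, and 2 without any other. The distribution as a whole lay below that of all genes, with a median log2 fold change of -0.79 against 0.01, and 64 of the 84 genes negative. The libraries were without overlap for 3 genes higher in brain and 20 lower in brain, or 3.57% and 23.8% of the 84, where the shares of all genes were 18.4% and 14.8%. The TMM-scaled size gave 3 and 23 genes (3.57% and 27.4%), against 16.0% and 17.0% of all genes. The 77 tested ribosomal protein genes had a median of -1.07, with 13 called lower in brain and 0 higher. The medians by complex were -0.67 for complex I, -0.68 for II, -0.77 for III, -1.05 for IV and -0.64 for V. The assembly and other factors had a median of 0.08. Within complex I, the 28 tested accessory subunits had a median of -0.89 and the 7 core subunits one of 0.08; this difference between the groups of genes was not tested. Under all 17 alternatives the medians of complexes I to V stayed negative, while leaving out single libraries moved the core median between -0.32 (without brain 1) and 0.15, and that of the assembly factors between -1.20 (without brain 2) and 1.17 (without liver 1).

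**Figure D2:**
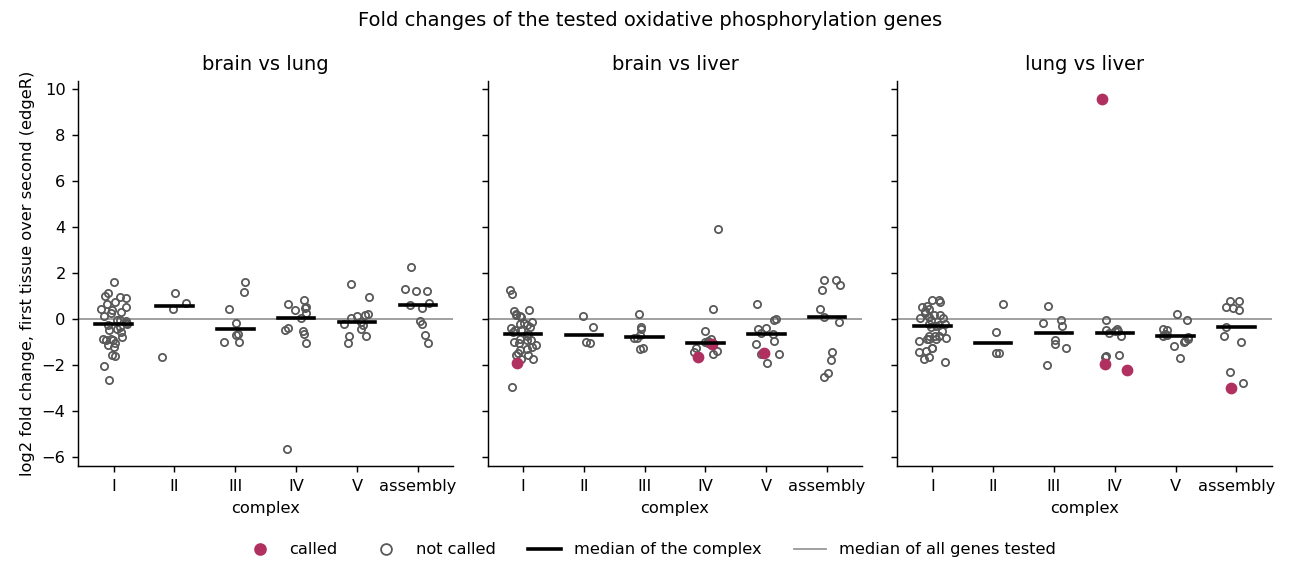
Log2 fold change (edgeR, first-named tissue over second) of each of the 84 tested genes by complex, with filled points for called genes, black bars for the median of each complex and a grey line for the median of all genes tested. Against liver, the brain medians of complexes I to V lie between -1.05 and -0.64, while no gene is called between brain and lung.

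The 4 genes called lower in brain than in liver belong to complexes I, IV and V, and each has a known job. Cox6a1 encodes the widely expressed form of a regulatory complex IV subunit whose other form, Cox6a2, serves heart and skeletal muscle. It stood at 42.4, 54.4 and 56.2 CPM in brain libraries 1 to 3, 81.1, 82.2 and 87.1 in lung and 96.8, 89.6 and 96.2 in liver. No libraries of any pair of tissues overlapped, and brain was 2.10-fold lower than liver (log2 fold change -1.07, SE 0.33, adjusted p = 0.0400). Against lung the brain value was -0.65 (adjusted p = 0.230), which was not called.

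Atp5g3 encodes one of the c-subunits, which form the rotating ring of ATP synthase and are made from 3 genes as the same mature protein. It was at 42.2, 25.1 and 25.2 CPM in brain, 44.3, 52.8 and 32.6 in lung, beside 63.5, 73.3 and 83.8 in liver. All liver libraries were higher than all others, and brain was 2.75-fold lower than liver (log2 fold change -1.46, SE 0.41, adjusted p = 0.0269). Atp5g1, a second gene for the c-subunit, had a log2 fold change of -1.53 between brain and liver with no overlap, yet was not called (adjusted p = 0.201).

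Cox8a encodes the ubiquitous form of a small complex IV subunit. Its level was 55.3, 28.6 and 18.8 CPM in brain, 33.7, 110 and 69.7 in lung, with 91.2, 111 and 65.6 in liver. Brain and liver did not overlap, and brain was 3.11-fold lower (log2 fold change -1.64, SE 0.53, adjusted p = 0.0485). Lung spanned a wide range that overlapped both.

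Ndufa8 encodes an accessory complex I subunit that faces the intermembrane space. It was at 10.6, 20.1 and 11.2 CPM in brain, 11.9, 25.7 and 7.22 in lung, beside 32.2, 59.0 and 43.6 in liver. Liver lay above brain and lung, and brain was 3.80-fold lower than liver (log2 fold change -1.93, SE 0.62, adjusted p = 0.0498). Lung over liver gave -1.87 and was not called (adjusted p = 0.0600).

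These 4 calls sit close to the threshold and rest on single libraries. Over 17 alternatives the direction never changed for any of the 4, but Atp5g3 was no longer called in 6, Cox8a in 9, Ndufa8 in 10 and Cox6a1 in 13. When 1 of the 9 libraries was left out in turn, the adjusted p ranged from 0.0250 to 0.0958 for Atp5g3, whose call was lost without brain 2, brain 3, liver 2 or liver 3. It ranged from 0.0369 to 0.126 for Cox6a1, whose call held without lung 2 and was lost without each of the other 8. For Cox8a it ranged from 0.0306 to 0.155, with the call lost without brain 2, brain 3, lung 3, liver 1 or liver 2. For Ndufa8 it ranged from 0.0328 to 0.167, with the call lost without any brain or liver library or without lung 1.

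**Figure D3:**
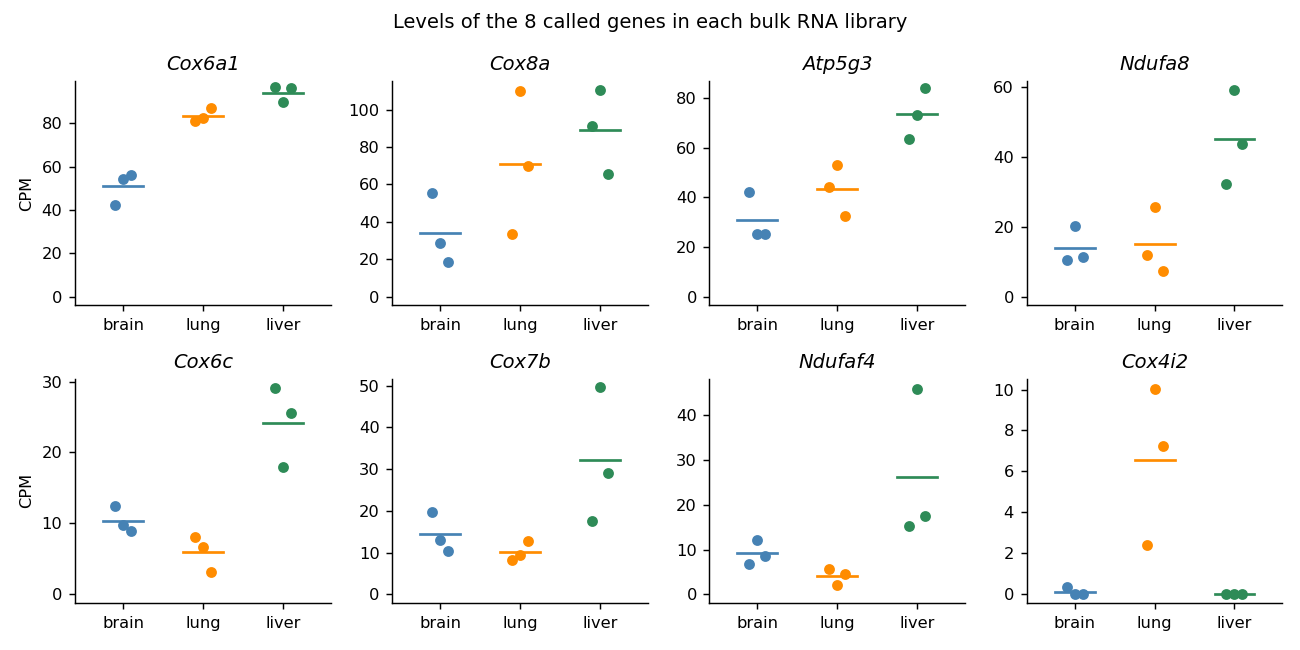
CPM of the 8 called genes in each bulk RNA library (points; bars are means over 3 libraries; linear axes from 0, which differ between panels). The top row holds the genes called between brain and liver, where liver libraries lie above brain libraries; the bottom row holds those called between lung and liver, with Cox4i2 seen in lung at 2.39 to 10.0 CPM.

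Promoter sequences are shown for the 4 genes called lower in brain, because 2 families of transcription factors, NRF1 and the ETS factor GABP, are known to bind promoters of many nuclear genes for the respiratory chain. The windows are RefSeq promoters in GRCm38.p6, from 250 bases before the annotated start to 50 after it, written 5′ to 3′ on the gene's strand. Capitals mark a match, on either strand, to the NRF1 core motif or to the ETS motif CCGGAAGN. Cox6a1 lies at chr5:115348909-115349208, Cox8a at chr19:7217567-7217866, Atp5g3 at chr2:73911277-73911576 and Ndufa8 at chr2:36049289-36049588, all on the minus strand.
Cox6a1: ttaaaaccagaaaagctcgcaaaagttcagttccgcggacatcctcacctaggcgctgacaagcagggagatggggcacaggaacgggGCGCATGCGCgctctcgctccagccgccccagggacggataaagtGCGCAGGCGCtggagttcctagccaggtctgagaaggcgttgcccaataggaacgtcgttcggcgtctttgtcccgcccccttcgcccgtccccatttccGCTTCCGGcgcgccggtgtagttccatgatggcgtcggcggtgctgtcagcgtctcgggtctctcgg
Cox8a: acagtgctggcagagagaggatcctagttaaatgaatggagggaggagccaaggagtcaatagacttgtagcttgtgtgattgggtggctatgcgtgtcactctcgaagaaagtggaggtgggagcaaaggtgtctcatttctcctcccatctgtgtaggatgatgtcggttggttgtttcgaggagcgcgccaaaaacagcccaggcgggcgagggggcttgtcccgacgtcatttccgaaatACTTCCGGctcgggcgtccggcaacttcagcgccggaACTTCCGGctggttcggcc
Atp5g3: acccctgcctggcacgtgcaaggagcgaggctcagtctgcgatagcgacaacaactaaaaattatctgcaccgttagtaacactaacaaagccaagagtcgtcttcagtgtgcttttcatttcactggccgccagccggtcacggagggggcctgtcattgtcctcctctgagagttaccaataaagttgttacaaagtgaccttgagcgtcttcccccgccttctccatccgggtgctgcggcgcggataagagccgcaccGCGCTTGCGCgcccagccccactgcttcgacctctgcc
Ndufa8: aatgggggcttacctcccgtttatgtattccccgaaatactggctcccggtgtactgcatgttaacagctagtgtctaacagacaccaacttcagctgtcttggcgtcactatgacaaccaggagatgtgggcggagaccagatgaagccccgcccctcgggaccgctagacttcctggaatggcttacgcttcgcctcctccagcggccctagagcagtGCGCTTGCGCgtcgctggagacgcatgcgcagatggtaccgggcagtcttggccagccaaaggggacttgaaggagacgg
Cox6a1 held 2 NRF1 matches and 1 ETS match, Cox8a held 2 ETS matches, and Atp5g3 and Ndufa8 each held 1 NRF1 match. Among the genes called between lung and liver, Ndufaf4 held 1 NRF1 match and Cox7b held no match to either motif. Of the 94 genes, 78 were matched to a promoter in the table by symbol; 19 of these (24.4%) held an NRF1 match and 19 (24.4%) an ETS match, and 4 held both. Over all 27025 genes with a promoter the shares were 5.19% and 9.90%, and over the 9958 that were also tested in bulk RNA they were 11.0% and 19.1%. For the 71 genes of the set that were also tested, the shares were 22.5% and 25.4%. The NRF1 share was 66.7% in complex II (2 of 3 genes), 42.9% in complex V (6 of 14), 21.9% in complex I (7 of 32), 20.0% in complex III (1 of 5) and 7.14% in complex IV (1 of 14), where the gene was Cox6a1. A match is only a run of letters, and binding was not measured. Of the genes for these factors, Nrf1 and Gabpb1 were not called in any comparison, with log2 fold changes between brain and liver of 0.24 (adjusted p = 0.807) and -0.41 (adjusted p = 0.578). A further one is Gabpa, the DNA-binding subunit of GABP, which was at 122, 82.4 and 96.6 CPM in brain, 52.9, 26.4 and 56.7 in lung, with 82.4, 64.3 and 91.9 in liver. Gabpa was called higher in brain than in lung (log2 fold change 1.20, SE 0.37, adjusted p = 0.0483) and not against liver (0.16, adjusted p = 0.833), the comparison behind the promoters shown.

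Between lung and liver, 1 gene was called higher in lung and 3 lower, against 8.04% and 7.02% of all genes tested. They make up 1.19% and 3.57% of the 84. At an unadjusted p under 0.05 the counts were 1 higher and 12 lower. These are 1.19% and 14.3% of the 84, against 14.9% and 13.7% of all genes. DESeq2 called 9 of the set, and 2744 over all genes. With 1 library left out the count was 0 without lung 3, 1 without lung 2, liver 2 or liver 3, 2 without lung 1 or liver 1, and 3 without any brain library. The median log2 fold change was -0.59 against 0.00 for all genes, with 62 of the 84 negative. The libraries were without overlap for 2 genes higher in lung and 15 lower in lung (2.38% and 17.9% of the 84), beside 21.0% and 13.5% of all genes. With CPM over the TMM-scaled library size, 2 were higher and 23 lower in lung without overlap (2.38% and 27.4% of the 84), beside 17.8% and 17.1% of all genes. The complex medians were -0.29 for I, -1.04 for II, -0.60 for III, -0.60 for IV and -0.76 for V.

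Cox4i2 was the gene called higher in lung. It encodes an isoform of complex IV subunit 4 that is known from lung and has been tied to oxygen sensing. The common form is Cox4i1. It had 27, 30 and 50 counts in lung libraries 1 to 3, or 2.39, 10.0 and 7.22 CPM. It was at 0 in all liver libraries and in brain libraries 2 and 3, and at 0.377 CPM in brain library 1. Taking 3 counts over the liver libraries together as the most that 0 counts allow, lung was at least 147-fold higher than liver (adjusted p = 0.0231); this bound covers counting error only. Against brain the gene was lower in every brain library than in any lung library, and the test did not call it (adjusted p = 0.0996). Cox4i2 passed the filter on low counts through the lung libraries alone, so the direction of both tests was fixed in advance.

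Cox4i1, the common form, was present in all 9 libraries and overlapped between all tissues. It was at 33.3, 16.2 and 55.8 CPM in brain, 44.3, 59.5 and 56.5 in lung, beside 47.0, 77.2 and 64.4 in liver. Lung over liver gave -0.51 on the log2 scale (adjusted p = 0.561). The 9 mural markers summed to 25.5, 31.8 and 22.1 CPM in lung libraries 1 to 3. They did not move alike, with Rgs5 at 5.66 to 85.1 CPM in brain and 0.531 to 2.17 in lung, and Tagln at 1.57 to 6.15 in brain and 4.16 to 18 in lung. The cardiac list, at 485, 2558 and 1013 CPM in lung libraries 1 to 3, had the order of Cox4i2, with library 2 highest and library 1 lowest. The sum over all 94 genes and Scgb1a1 had it too, but the sum of the other 8 lung epithelium markers did not. Of the mural markers, Tagln and Kcnj8 had this order. Pdgfrb, Cspg4, Notch3 and Vtn were lowest in library 2, and Rgs5, Abcc9 and Acta2 did neither. The part of these markers in the result was not tested. The call for Cox4i2 was lost without lung 2, lung 3 or any liver library, where the adjusted p reached 0.0760.

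Ndufaf4, Cox6c and Cox7b were called lower in lung than in liver. Ndufaf4 encodes an assembly factor of complex I, and was at 6.73, 12.2 and 8.63 CPM in brain, 5.66, 2.01 and 4.62 in lung, with 15.2, 45.9 and 17.5 in liver. No pair of tissues overlapped, and lung was 8.03-fold lower than liver (log2 fold change -3.01, SE 0.78, adjusted p = 0.0189).

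Cox6c encodes a small nuclear-encoded subunit of complex IV. It was at 12.4, 9.81 and 8.99 CPM in brain, 8.05, 6.68 and 3.18 in lung, beside 29.1, 17.9 and 25.5 in liver. Again the tissues lay apart, and lung was 4.68-fold lower than liver (log2 fold change -2.23, SE 0.66, adjusted p = 0.0352).

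Cox7b encodes a complex IV subunit needed for assembly of the enzyme. It stood at 19.6, 13.0 and 10.4 CPM in brain, 8.31, 9.36 and 12.9 in lung, with 17.6, 49.6 and 29.0 in liver. Lung and liver did not overlap, and lung was 3.93-fold lower (log2 fold change -1.98, SE 0.63, adjusted p = 0.0490). Over the 17 alternatives the direction of these 3 genes never changed, while the call was lost in 5 for Ndufaf4, 9 for Cox6c and 14 for Cox7b. Leaving out 1 library took the adjusted p to 0.123 for Ndufaf4, lost without lung 2, lung 3 or liver 2. It took it to 0.148 for Cox6c, lost without any lung library, liver 1 or liver 3, and to 0.220 for Cox7b, whose call held only without liver 1.

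The genes described next have roles at the centre of the complexes and were not called in any comparison. Ndufs1, the largest core subunit of complex I, was higher in every brain library than in any lung library, with 24.3, 48.8 and 27.3 CPM in brain and 21.7, 18.4 and 13.3 in lung (log2 fold change 0.96, adjusted p = 0.271).

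Complex II, which is also the succinate dehydrogenase of the citrate cycle, was measured by its 4 genes. Sdha, the flavoprotein that oxidises succinate, was at 129, 179 and 295 CPM in brain, 124, 139 and 126 in lung, with 162, 132 and 208 in liver, with all tissues overlapping. Sdhc, a membrane anchor, was at 27.6, 37.5 and 66.6 CPM in brain, 25.7, 14.7 and 22.8 in lung, beside 46.5, 33.7 and 75.2 in liver. Lung held the least Sdhc without overlap with either tissue, and the comparison with liver gave -1.50 (adjusted p = 0.0595). Sdhb and Sdhd, the iron-sulfur subunit and the other anchor, overlapped between all tissues and ranged from 2.16 to 27.4 and from 1.34 to 57.4 CPM over the 9 libraries.

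In complex III, Uqcrb, which lies at the quinone-binding core, was at 12.8, 11.5 and 19.0 CPM in brain, 7.07, 2.67 and 4.77 in lung, with 12.7, 20.3 and 14.6 in liver. Lung was lowest without overlap, with log2 fold changes of 1.63 for brain over lung (adjusted p = 0.162) and -1.99 for lung over liver (adjusted p = 0.0809). Uqcrc2, a core protein of the same complex, was at 21.6, 16.0 and 25.5 CPM in brain, 15.7, 7.69 and 25.3 in lung, beside 43.7, 25.7 and 31.7 in liver, with liver above both. Uqcrc1 and Uqcrfs1, the other core protein and the Rieske iron-sulfur protein, overlapped between brain and liver.

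In complex V, the catalytic subunit Atp5b was at 200, 236 and 205 CPM in brain, 263, 272 and 247 in lung, with 254, 477 and 315 in liver. Brain lay below both tissues without overlap, and against liver its log2 fold change of -0.95 missed both thresholds (adjusted p = 0.0525). Its partner Atp5a1, which alternates with it in the head of the enzyme, was at 101, 144 and 118 CPM in brain, 122, 137 and 103 in lung, beside 143, 142 and 127 in liver, and overlapped between all tissues. Atp5e, the small subunit of the central stalk, was at 4.59, 5.69 and 6.61 CPM in brain, 8.40, 6.68 and 14.4 in lung, with 16.3, 26.3 and 11.7 in liver. Its log2 fold change between brain and liver was -1.93 without overlap (adjusted p = 0.0896).

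Ndufa4, once counted to complex I and now known as a complex IV subunit, was at 7.80, 12.9 and 11.3 CPM in brain, 9.02, 7.02 and 9.39 in lung, beside 24.5, 22.1 and 19.9 in liver. Liver was above both tissues without overlap, with log2 fold changes of -1.24 for brain over liver (adjusted p = 0.197) and -1.63 for lung over liver (adjusted p = 0.0933). Ndufaf7 and Ndufa7 leaned the other way. Ndufaf7, a methyltransferase that acts on a complex I core subunit, was at 24.3, 30.3 and 29.4 CPM in brain, 9.82, 0 and 8.38 in lung, with 15.6, 1.36 and 16.6 in liver. All brain libraries were above all others, with log2 fold changes of 2.25 against lung (adjusted p = 0.208) and 1.25 against liver (adjusted p = 0.488). Ndufa7, an accessory complex I subunit, was at 25.3, 30.3 and 32.3 CPM in brain and 16.6, 5.18 and 12.2 in liver, a log2 fold change of 1.25 without overlap that was not called (adjusted p = 0.207). These patterns without a call are descriptions of 3 libraries a tissue.

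The muscle, testis and hypoxia-linked isoforms were at or near 0 in the bulk libraries. Cox6a2, Cox8b, Cox8c and Cox7b2 had no count in any library, Cox7a1 had 22 counts over the 9 libraries and Ndufa4l2 had 2. Cox6a2, Cox7a1 and Cox8b are the complex IV isoforms of heart muscle. The cardiac contractile gene Myh6 was listed at 79.7 to 186 CPM in brain, 300 to 1812 in lung and 200 to 273 in liver, while Cox6a2 and Cox8b were at 0 in the same libraries. Cox6b2, the testis form, had 17 counts in all, at 0 in brain and liver and at 0.265, 4.01 and 0.289 CPM in lung. Atp5k and Ndufs5, which are ubiquitous subunits of complexes V and I, also had no count in any bulk library.

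Related pathways were described by the same test, using gene lists chosen with earlier results of these data known. Of 33 tested assembly factors that the name rule does not take, 0 were called between brain and either tissue, and 2, Cox16 and Coa5, were called lower in lung than in liver, which is 6.06% against 7.02% of all genes. Of 13 electron carriers and related genes, Atpif1, which encodes the inhibitor that stops ATP synthase from running in reverse, was called lower in brain than in liver. It was at 4.90, 8.81 and 8.90 CPM in brain, 6.46, 20.7 and 20.6 in lung, beside 27.9, 60.1 and 41.0 in liver (log2 fold change -2.74, SE 0.66, adjusted p = 0.0108). This call was 7.69% of the list, against 8.72% of all genes called lower in brain than in liver.

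Of 19 regulators of mitochondrial biogenesis, brain exceeded lung in 2 called genes and fell short of it in 1, and it exceeded liver in 2. Both directions together, the calls were 15.8% of the list against lung and 10.5% against liver. Calls with brain above lung made up 5.05% of all genes tested, and calls with brain below lung 7.25%. Against liver these background shares were 7.45% and 8.72%. Ssbp1, the protein that coats single-stranded mitochondrial DNA, was at 103, 35.6 and 44.1 CPM in brain, 8.84, 2.01 and 12.3 in lung, with 16.0, 3.50 and 13.0 in liver. It was called higher in brain against lung (log2 fold change 3.00, adjusted p = 0.0168) and against liver (2.36, adjusted p = 0.0387). Mterf4, which acts on mitochondrial ribosomes, was called higher in brain than in liver (log2 fold change 2.47, adjusted p = 0.0352). Pprc1, a coactivator related to PGC-1, was called lower in brain than in lung (log2 fold change -1.64, adjusted p = 0.0262).

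Of 21 citrate cycle and pyruvate dehydrogenase genes, only kinases that switch off pyruvate dehydrogenase were called. They were 4.76% of the list between brain and liver and 9.52% between lung and liver. Over all genes tested, 8.72% were called lower in brain than in liver and 7.02% lower in lung than in liver. Pdk4 was at 7.04, 10.0 and 12 CPM in brain, 3.09, 7.35 and 0.289 in lung, beside 69.3, 45.6 and 85.1 in liver, higher in liver than in brain (log2 fold change of brain over liver -2.92, adjusted p = 0.0200) and than in lung (-4.48, adjusted p = 0.00313). Pdk1 was called lower in lung than in liver (log2 fold change -2.12, adjusted p = 0.0281). Of 16 tested glycolysis genes, 3 were called, among them Hk2 (lower in brain than in liver) and Ldhb (lower in lung than in liver). Calls made up 6.25% of the list between brain and either tissue and 12.5% between lung and liver. Over all genes tested, 7.25% were called lower in brain than in lung and 8.72% lower in brain than in liver. Between lung and liver, 8.04% were called higher and 7.02% lower in lung. The third, Pfkfb3, which makes the activator of phosphofructokinase, was highest in lung, at 136, 120 and 85.5 CPM against 48.8, 9.87 and 31.1 in brain and 25.3, 19.8 and 39.8 in liver. Both differences were called, with log2 fold changes of -1.88 for brain over lung (adjusted p = 0.0315) and 1.80 for lung over liver (adjusted p = 0.0345). Of 13 fatty acid oxidation genes, Cpt1a, which brings long-chain fatty acids into mitochondria, was called higher in brain than in liver (log2 fold change 1.08, adjusted p = 0.0257). This call was 7.69% of the list, against 7.45% of all genes called higher in brain. The medians of log2 fold change between brain and liver were -0.46 for the citrate cycle list, -0.07 for glycolysis and 0.37 for fatty acid oxidation.

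The single-cell library of brain gave the level of each gene in molecules. It held 9405 distinct barcodes and 45602016 unique molecular identifiers (UMIs), with a median of 4393 per barcode, and 97.0% of barcodes had a UMI of Cldn5 or Pecam1. With 1 library there is no test, and the intervals below (95%, exact) cover counting error only. The 98 genes summed to 13486 CPM (13453 to 13520), or 1.35% of all UMIs, and 95 of them had at least 1 UMI. Complex I held 4389 CPM over 37 genes, complex V 3687 over 17, complex IV 3407 over 20, complex III 1414 over 8 and complex II 260 over 4, with 329 for the 12 assembly and other factors. The 13 subunits encoded in mitochondrial DNA, which are absent from the bulk table, summed to 27621 CPM, with mt-Atp6 highest at 5146 and mt-Nd6 at 52.6.

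Counted per UMI, genes of complexes I, IV and V led. Cox4i1 was first at 436 CPM, found in 69.8% of barcodes, followed by Ndufa7 at 432, Atp5j at 413, Cox6c at 366, Atp5e at 362 and Atp5b at 354. Of the complex I core subunits, Ndufs7 had the most UMIs at 106 CPM and Ndufs1 the fewest at 32.3. Complex II had the lowest sum of the 5 complexes, with Sdha at 84.4 CPM, Sdhb at 76.0, Sdhc at 55.2 and Sdhd at 44.5. Assembly factors ranged from Ndufaf7 at 66.0 CPM to Ndufaf5 at 5.13. Cox6a2, Cox7b2 and Cox8c had 0 UMIs in the library.

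The same genes stood differently in the brain assays. Over the 92 genes in both, the Spearman correlation of bulk brain CPM with single-cell CPM was 0.41, a description over genes that share libraries and were not scaled by length. Bulk counts rise with transcript length and UMIs do not, so part of such a difference is built into the units. Over the genes with counts in bulk brain, the median ratio of single-cell to bulk CPM was 14.6. Sdha had the lowest ratio, 0.419, at 201 CPM in bulk brain and at 84.4 in single cells. Some ubiquitous genes were nearly missing from bulk, with Atp5k at 176 CPM and Ndufs5 at 169 CPM in single cells and 0 counts in bulk, and Atp5g2 at 232 CPM against 13 counts over the 3 bulk brain libraries. Many genes of this family have near-identical processed copies elsewhere in the genome, and how reads shared with such copies were counted is not given in the sources used here. Levels of such genes in bulk are uncertain, and the part of shared reads in them was not tested.

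**Figure D4:**
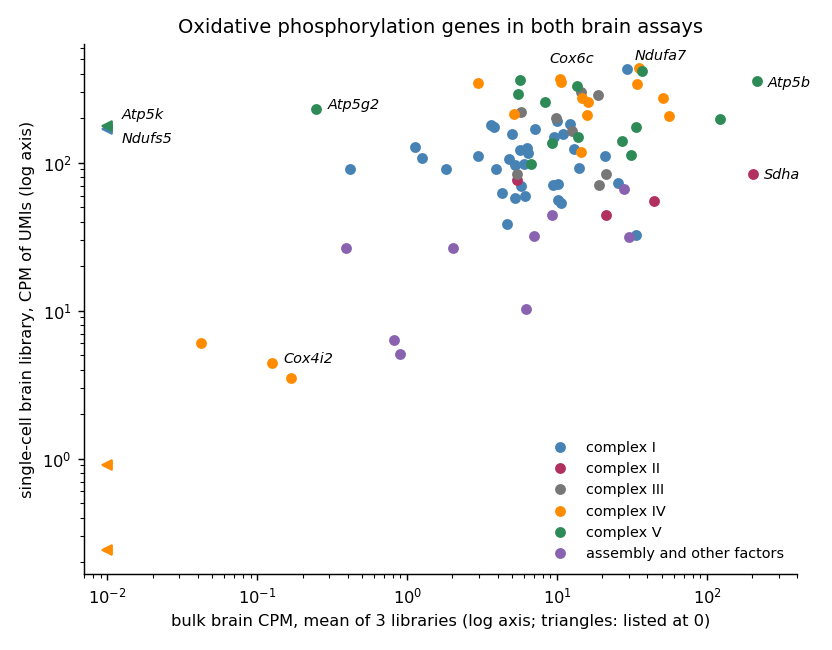
Each point is 1 of the genes found in both brain assays with at least 1 single-cell UMI, at its mean CPM over 3 bulk brain libraries (x, log axis) and its CPM of UMIs in the single-cell library (y, log axis), coloured by complex; triangles at the left edge mark genes listed at 0 in bulk brain. Atp5k and Ndufs5 stand at 176 and 169 CPM in single cells and at 0 in bulk. Sdha, with the lowest ratio of single-cell to bulk CPM, has 201 CPM in bulk and 84.4 in single cells.

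The rare complex IV isoforms were not spread evenly over the barcodes. Cox4i2 had 203 UMIs in 77 barcodes, and 57.1% of these barcodes (45.4% to 68.4%) also held 3 or more UMIs of the 9 mural markers. Ndufa4l2, an Ndufa4 relative known from pericytes and hypoxic cells, had 277 UMIs in 89 barcodes, with 62.9% (52.0% to 72.9%) holding mural markers. Among all 9405 barcodes that share was 1.98%, and among barcodes with Cox4i1 it was 2.47%. Turned around, Cox4i2 was seen in 23.7% (17.7% to 30.4%) of the 186 barcodes with 3 or more mural UMIs and in 0.358% (0.247% to 0.502%) of the other 9219. Their median UMIs were 6167 and 4362, and Cox4i1 was found in 87.1% and 69.5% of them. Cox4i2 was at 141 CPM in the mural-marker barcodes and at 0.833 CPM in the rest, and Ndufa4l2 was at 204 and 0.833. The minimum of 3 UMIs draws a range and not a cell type, and the sort was set to leave out PDGFRβ+ cells. Cox7a1, with 161 UMIs, showed no such difference, at 1.61% (0.334% to 4.64%) and 1.46% (1.23% to 1.73%) of the same barcodes.

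**Figure D5:**
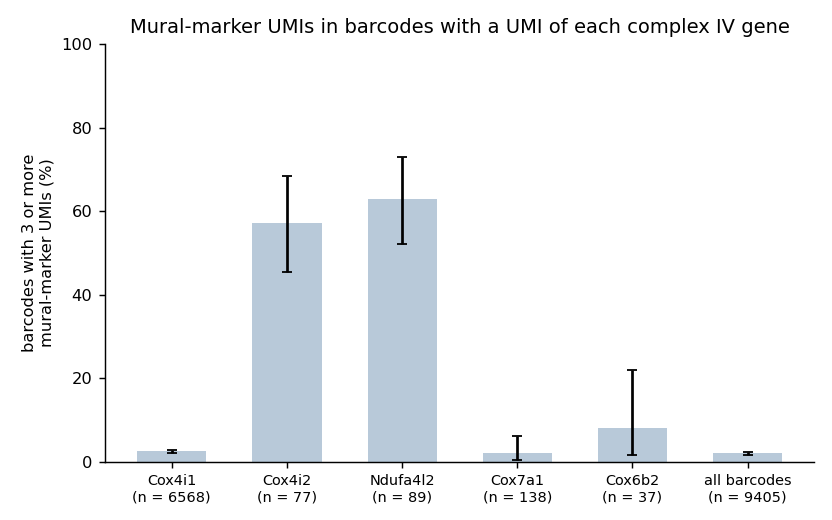
Percent of barcodes that hold 3 or more UMIs of the 9 mural markers, among barcodes with at least 1 UMI of each complex IV gene and among all barcodes (n below each bar; error bars are exact 95% binomial intervals for counting error). Barcodes with Cox4i2 and Ndufa4l2 reach 57.1% and 62.9%, and all barcodes 1.98%.

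Barcodes were also split by UMIs of 8 arterial and 8 venous markers, which draws ranges and not cell types. In 765 barcodes with 3 or more arterial-marker UMIs and 0 venous ones, the 98 genes summed to 13605 CPM (13491 to 13719). In 2390 barcodes with the reverse they summed to 14955 CPM (14884 to 15026). Complex I was at 4367 and 4938 CPM in these ranges, complex II at 280 and 273, complex III at 1435 and 1575, complex IV at 3484 and 3730, and complex V at 3732 and 4085. Subunits encoded in mitochondrial DNA were at 23958 and 30219 CPM, and cytosolic ribosomal proteins at 61747 and 72125. All of these sums but that of complex II were higher per UMI in the venous-marker range. Of the barcodes, 158 and 278 lay right at the minimum of 3 UMIs. Median UMIs per barcode were 5057 and 4393. Median UMIs of the markers that set each range were 6 and 9, while those of the capillary markers were 19 and 26. Of the venous markers, Tmsb10 had the most UMIs in the library, 38241, and Vcam1 was next at 7685. The part of Tmsb10 in the split was not tested. These are values of 1 library, and no test was possible.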

How the data were processed

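RNA of sorted endothelial cells was measured in 9 bulk libraries and 1 single-cell library, grouped by the tissue the labels give. The deposited values are raw counts per gene symbol and raw UMI counts per gene and barcode, per the file headers; what cell filter preceded them is not given in the sources used here. The submitters' processing notes name Cell Ranger 1.2.0, HTSeq 0.6.1, TopHat, Bowtie2, MACS2, Picard, bedtools and SAMtools 1.10.2 and the builds mm9 and mm10, and tie none to an assay. Strand use in counting is not given there, so overlapping or antisense genes are uncertain.

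Levels are CPM, counts per 1000000 of the library total, as mean or value per library. Tests used edgeR 4.0.16 in R 4.3.3 on the counts of all 9 libraries in 1 quasi-likelihood fit (filterByExpr, TMM scaling, robust), with Benjamini-Hochberg adjustment over 13216 genes; SE is the log2 fold change over the root of the F statistic. The biological coefficient of variation was 0.766. DESeq2 1.42.0 was an alternative, as were other scalings, no filter, a replicate block and leaving out each library. The script was tested on simulated data. Single-cell tables were made with Python 3.11.15 and scipy 1.17.1; no barcodes were removed and no doublet caller was run.

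Genes named were those called, per comparison the 6 that differed most each way, the tissue isoforms, core subunits and the 2 with the highest mean CPM of each complex; some of these are given by range and count. The gene sets and lists were chosen with earlier results of these data known. Same-numbered libraries of different tissues did not deviate together, with correlations of -0.003 to 0.078, so the numbers were not taken as pairs. The ATAC data were not used here, since the peaks carry no gene names and no genome of their build was at hand. Protein sequences were not used here. 1 gene of the set is not reported here.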

Additional observations from a re-analysis of the deposited data

How the results depend on the processing

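Of 2544 single-gene results under the alternatives, 2367 kept direction and side of the threshold, and no called gene changed sign; of 136 for called genes, 72 lost the call and 64 kept it, and 31 of 612 complex medians changed sign. The count of called genes between brain and lung (0) was 2 with DESeq2 and 1 with only the tissues compared, and the median (-0.09) was -0.20 to 0.048 with 1 library left out and 0.066 without lung 2 and liver 2, a pair left out after seeing the data. Between brain and liver the count (4) was 2 with RLE size factors, 0 with library size only, 7 with DESeq2, 0 to 4 with 1 library left out and 0 without lung 2 and liver 2. The median (-0.79) was -0.63 with library size only, -0.79 to -0.58 with 1 library left out and -0.57 without lung 2 and liver 2. Between lung and liver the count (4) was 2 with library size only, 2 without the filter, 9 with DESeq2, 0 to 3 with 1 library left out and 0 without lung 2 and liver 2. The median (-0.59) was -0.36 with library size only and -0.72 to -0.41 with 1 library left out. Library size only moved the median of all genes by 0.18 against liver for brain and 0.22 for lung. Calls over all genes between lung and liver (1991) were 1312 to 1978 with 1 library left out and 1239 without lung 2 and liver 2.

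With the replicate number as a block, 2 genes were called between brain and liver and 2 between lung and liver; the numbers do not pair the samples. The single-cell sum (13486 CPM) was 14066 without barcodes rich in erythroid or choroid plexus markers, 13813 in barcodes with Cldn5 or Pecam1, and 13870 over a total without mitochondrially encoded transcripts. Where values changed, the cause was not tested. With 3 libraries a tissue and a coefficient of variation of 0.766, small differences were not detectable.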
